A study of Mus musculus with 2 samples.

Results

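The 39 interferon-stimulated genes described here are genes that cells switch on in response to interferons, and they were taken by name from the 48321 gene symbols listed in the deposited counts. All 39 were found in both libraries. They were measured by RNA-seq in 2 replicates of sorted CD4- mature thymocytes (CD24 low, TCRβ high) of *MHC-II0:CD8ab Tg* mice on the C57Bl/6 background. Both replicates carried the same alleles. The mice were *I-Ab-/-*, a genotype without conventional MHC class II, *Cd8Δab/Δab* and so lacked the coding regions of both endogenous CD8 chains, and expressed CD8α and CD8β from complementary DNAs at the *Rosa26* locus after *Cd4-Cre* removed a stop cassette. The Cre is therefore active in all cells that pass through the CD4-expressing stages, and transgenic CD8 protein is lower than the endogenous protein according to the study. Age and sex of the mice are not given in the labels, and the labels do not say whether a library is 1 mouse or a pool. The sample titles call the cells CD4-CD8-, whereas the cell type label and the source name call them CD8+. With a single group, no genotype was compared, and every test below compares the libraries with each other, not conditions.

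Interferons are secreted proteins. Cells release type I interferons (interferon-α and -β) when they sense viral or other foreign nucleic acid. Small amounts are also made without infection, including by cells of the thymic medulla. Type I interferons bind the receptor IFNAR1/IFNAR2, whose kinases JAK1 and TYK2 pass on the signal. A complex that contains STAT2 and IRF9 then binds the interferon-stimulated response element (ISRE) in promoters. Interferon-γ acts through IFNGR1/IFNGR2, JAK1 and JAK2, and leads to binding at the gamma-activated site (GAS). The products of the induced genes detect viral RNA, block steps of viral replication, or feed back on the pathway.

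Since the DNA elements connect these genes to the pathway, the promoter windows of the members were searched first. RefSeq promoter windows of GRCm38.p6, each running from 250 bases before to 50 bases after a start of the gene, were found for 30 of the 39 genes, in 43 windows. In 32 of the 43 windows the bases after the start occurred in an annotated transcript of the gene. A start can lie inside the annotated gene, as in the windows of *Shisa5* and *Adar* that hold a match. The genes without an entry were *Mx1*, *Ifi27l2a*, *Iigp1*, *Usp18*, *Rtp4*, *Zbp1*, *Ly6a*, *Parp14* and *Dhx58*. The ISRE was searched as GAAA, 2 bases of any kind and GAAA again, and the GAS as TTCNNNGAA, on both strands, and their matches may overlap. An ISRE was present in 18 of the 30 genes (60.0%), against 3.99% of all 27025 genes with a window. A GAS was present in 11 of the 30 (36.7%), against 9.55% of all genes. Both motifs were found in 6 genes, the ISRE alone in 12, the GAS alone in 5 and neither in 7 (*Ifi47*, *Irf7*, *Irf9*, *Oasl2*, *Slfn1*, *Slfn2* and *Xaf1*). A match describes letters only, and it was not tested whether any factor binds there in these cells.

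The sites printed next were chosen to show the forms that the elements took, each as 30 bases of the gene's own strand, 5′ to 3′, with the letters of a motif match in capitals. In *Ifit1* (chr19:34640785-34640814) 2 ISREs on the opposite strand lay side by side. In *Isg15* (chr4:156200871-156200900) 3 ISREs overlapped in a run of GAAA units, and in *Oas1a* (chr5:120907523-120907552) 2 overlapped close to the start. In *Bst2* (chr8:71537583-71537612) a GAS ran into 2 overlapping ISREs. *Igtp* (chr11:58199507-58199536) and its neighbour *Irgm2* (chr11:58214898-58214927) held a GAS followed by an ISRE, and these stretches differed at 1 of 30 positions, counted from 1 at the 5′ end (T8C, *Igtp* first). *Rsad2* (chr12:26456553-26456582) held a single ISRE on the opposite strand, and *Irf1* (chr11:53769914-53769943) a GAS with no ISRE.
Ifit1: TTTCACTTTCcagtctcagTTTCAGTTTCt
Isg15: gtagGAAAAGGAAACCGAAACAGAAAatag
Oas1a: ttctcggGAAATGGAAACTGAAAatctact
Bst2: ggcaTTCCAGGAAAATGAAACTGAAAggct
Igtp: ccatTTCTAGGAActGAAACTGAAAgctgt
Irgm2: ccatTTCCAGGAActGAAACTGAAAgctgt
Rsad2: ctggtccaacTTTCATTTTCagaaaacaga
Irf1: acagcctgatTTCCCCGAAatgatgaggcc

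The first motif letter lay 104 bases before the start in *Ifit1*, 78 in *Isg15*, 20 in *Oas1a*, 136 in *Bst2*, 45 in *Igtp*, 75 in *Irgm2*, 120 in *Rsad2* and 90 in *Irf1*. More than 1 ISRE within 30 bases was found in 5 genes (*Bst2*, *Ifit1*, *Irgm1*, *Isg15* and *Oas1a*), and an ISRE with a GAS within 30 bases in 4 (*Bst2*, *Igtp*, *Irgm2* and *Shisa5*).

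**Figure D1:**
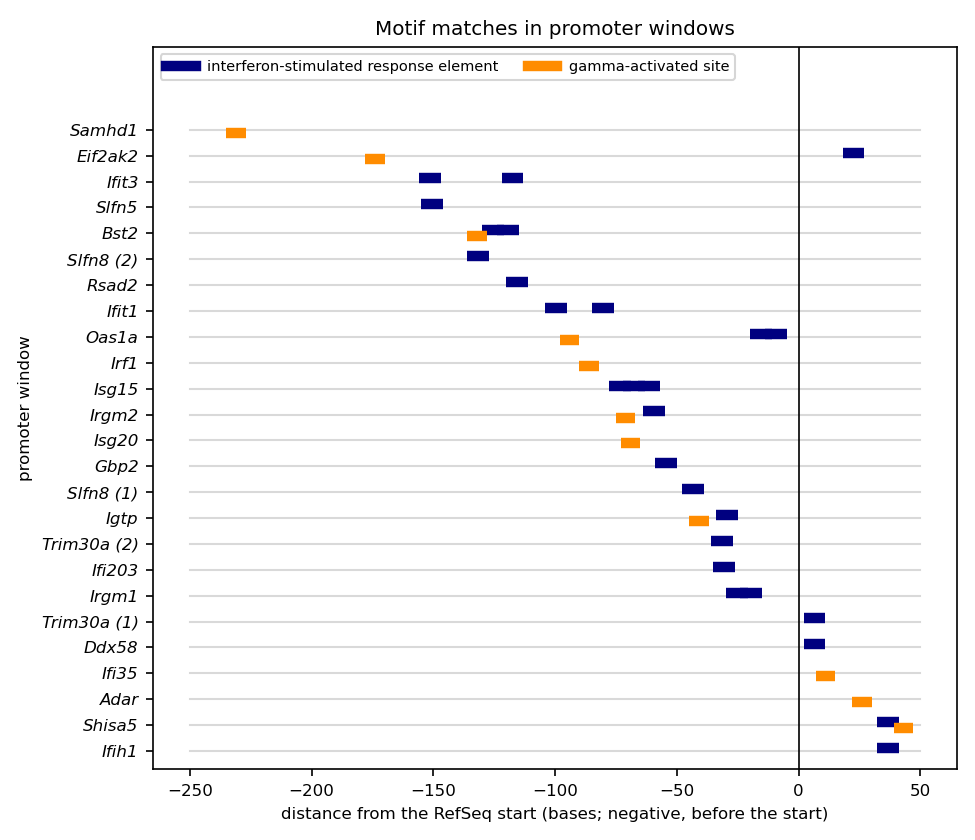
Positions of ISRE (blue) and GAS (orange) matches in the promoter windows of the interferon-stimulated genes that hold at least 1 match. The x axis is the distance from the RefSeq start in bases, each grey line is 1 window, and a number in parentheses tells windows of 1 gene apart. ISREs were present in 18 genes and GAS matches in 11, and most lay before the start.

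The libraries held 16732644 and 16245849 counts on genes, 40.6% and 41.2% of the uniquely aligned reads, and levels are given as CPM of these totals (counts scaled to equal library size). The Wilson 95% intervals and the floor of 3 counts, 0.179 CPM in replicate 1 and 0.185 CPM in replicate 2, cover counting error only, because copies made by PCR were not marked and the reads are not independent. Mitochondrial and ribosomal RNA genes took 16.0% of the counts in replicate 1 and 12.6% in replicate 2. The T cell receptor component gene *Cd3e* was at 408 and 368 CPM, *Cd8a* at 158 and 171 CPM and *Cd4* at 0.717 and 1.66 CPM. Of the altered genes, *H2-Ab1*, the gene of the I-Ab β chain, had 395 and 292 counts (23.6 and 17.97 CPM) and *Cd8b1* was at 775 and 786 CPM, both named after their values were seen. These counts are per gene, so they do not tell transcripts of a disrupted allele or of a transgene from those of an intact gene, and they do not check the genotype. *Xist*, transcribed from the inactive X chromosome, had 34 and 25266 counts and the Y-linked *Ddx3y* had 2450 and 0 counts. By these counts replicate 1 was male and replicate 2 female. Every ratio and call between the replicates below therefore also compares the sexes. Sex cannot be told apart here from other differences between the libraries, and its part was not tested. Among marker lists, all 11 genes of mature thymocytes were at 1 CPM or more in both libraries, with a summed level of 4380 and 3975 CPM. The NK cell list (*Ncr1*, *Klrb1c*, *Eomes* and *Klre1*) summed to 231 and 403 CPM, of which *Eomes*, also a gene of innate memory CD8 T cells, gave 196 and 355 CPM. Macrophage markers summed to 12.8 and 15.3 CPM, B cell markers to 13.6 and 15.5 CPM, immature double-positive thymocyte markers to 41.1 and 37.7 CPM, conventional dendritic cell markers to 5.68 and 5.79 CPM, thymic epithelial markers to 3.88 and 4.37 CPM, and erythroid and neutrophil markers to under 1 CPM each. Of 7 markers of plasmacytoid dendritic cells, which are strong interferon producers and whose list summed to 191 and 196 CPM, *Siglech* had 4 and 2 counts, *Ly6d* 3 and 6, *Cox6a2* 3 and 5 and *Klk1* 0 in both. The sum came mostly from *Bst2*, which is itself one of the 39 genes, and *Ccr9*, at 87.4 and 105 CPM, which thymocytes also express, and *Tcf4* had 63 and 46 counts.

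All 39 interferon-stimulated genes were at 1 CPM or more in both replicates, and all except *Oasl2* were at 5 CPM or more. Their median level was 132.4 CPM in replicate 1, against 128.6 in replicate 2, and together they took 0.766% and 0.755% of all counts on genes. The replicates were close: 28 of the 39 genes lay within 1.1-fold of each other and 33 within 1.2-fold, and the median coefficient of variation (the SD of the replicates divided by their mean) was 4.35%. This closeness was not particular to the members. Among genes with at least 500 counts, the median absolute log2 ratio was 0.086 for the members and 0.104 for all genes. Across the 39 genes, log2 CPM of the replicates correlated with Pearson's r = 0.9906 and Spearman's rho = 0.9891, a description across genes, which share the libraries and are not independent replicates. The median log2 ratio of replicate 2 to replicate 1 was -0.0030 for the 39 genes and 0.076 for all 15949 genes tested.

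**Figure D2:**
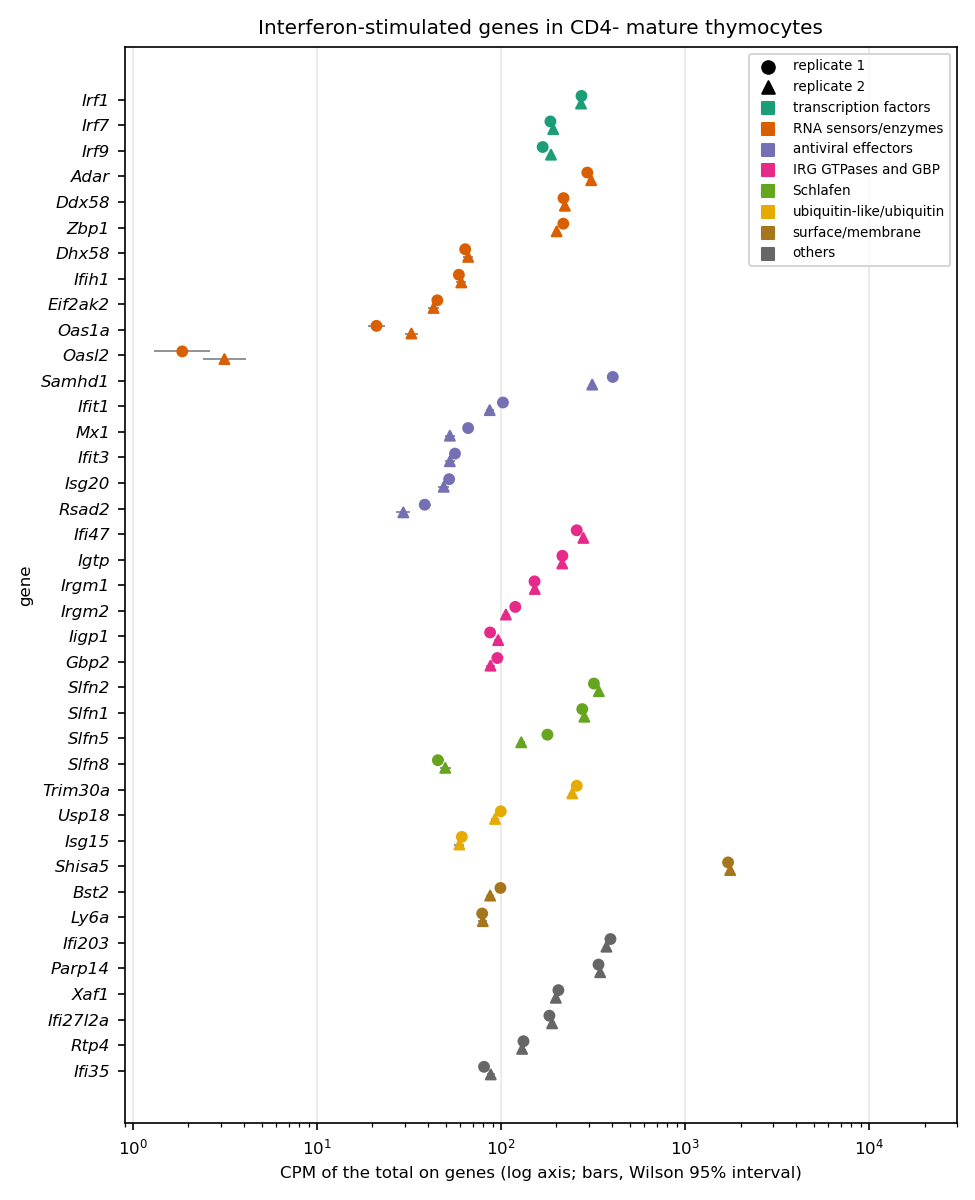
Level of each interferon-stimulated gene in replicate 1 (circles) and replicate 2 (triangles), in CPM on a log axis with Wilson 95% intervals as bars, coloured by role. For most genes the symbols nearly coincide, and *Oasl2* (1.85 and 3.14 CPM) stands below all others.

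Differences between the replicates were tested per gene by a two-sided exact binomial test of the counts against the library totals, and a gene was called at a Benjamini-Hochberg adjusted p under 0.05 over all genes tested. Of the 39 genes, 15 were called (38.5%), against 16.3% of all genes tested and 26.8% of the 7756 genes with at least 500 counts. Of these, 9 were higher in replicate 1 (background 2.82%, or 3.97% with at least 500 counts) and 6 were higher in replicate 2 (background 13.5%, or 22.8%). None reached 2-fold (background 1.52%, or 0.219%). The split of directions depended on how the libraries were scaled. With TMM factors 15 were higher in replicate 1 (background 5.49%) and 1 was higher in replicate 2 (background 5.09%). With DESeq2 size factors it was 13 (background 4.63%) against 1 (background 6.22%). With totals that left out mitochondrial and ribosomal RNA genes it was 13 (background 4.4%) against 1 (background 6.57%). Over all genes tested, the share of calls that were higher in replicate 2 was 82.7% with the totals on genes, 48.1% with TMM, 57.3% with DESeq2 size factors and 59.9% without the mitochondrial and ribosomal RNA genes. With each of these 4 scalings 10 of the 39 genes were called in the same direction: *Ifit1*, *Mx1*, *Rsad2*, *Samhd1*, *Bst2*, *Ifi203*, *Irgm2*, *Zbp1* and *Slfn5* were higher in replicate 1 and *Oas1a* was higher in replicate 2. The share of all genes called with all 4 scalings was not computed. It can be no larger than the smallest share with a single scaling, 2.82% higher in replicate 1 and 5.09% higher in replicate 2. The binomial test counts only sampling error. When edgeR's exact test was run with an assumed biological coefficient of variation of 0.1, none of the 39 genes was called (background 0.464%), and 3 had an unadjusted p under 0.05 (*Oas1a*, *Oasl2* and *Slfn5*), against 5.17% of all genes.

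**Figure D3:**
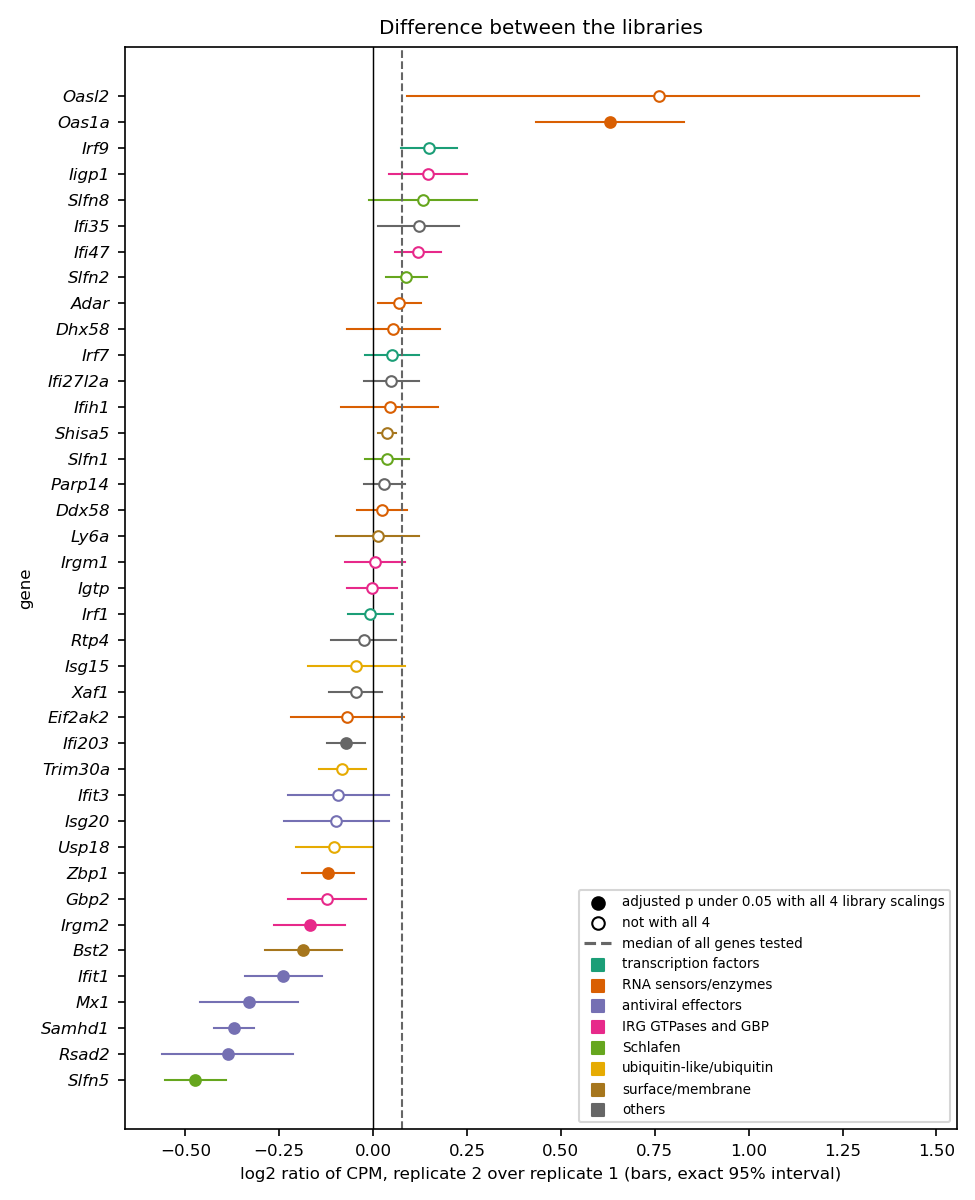
Log2 ratio of CPM, replicate 2 over replicate 1, for each interferon-stimulated gene, with exact 95% intervals that cover counting error only. Filled points were called with all 4 library scalings, and the dashed line marks the median of all genes tested (0.076). The antiviral effectors (purple) sit left of 0, from -0.39 for *Rsad2* to -0.092 for *Ifit3*, and *Oas1a* is at 0.63.

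**Figure D4:**
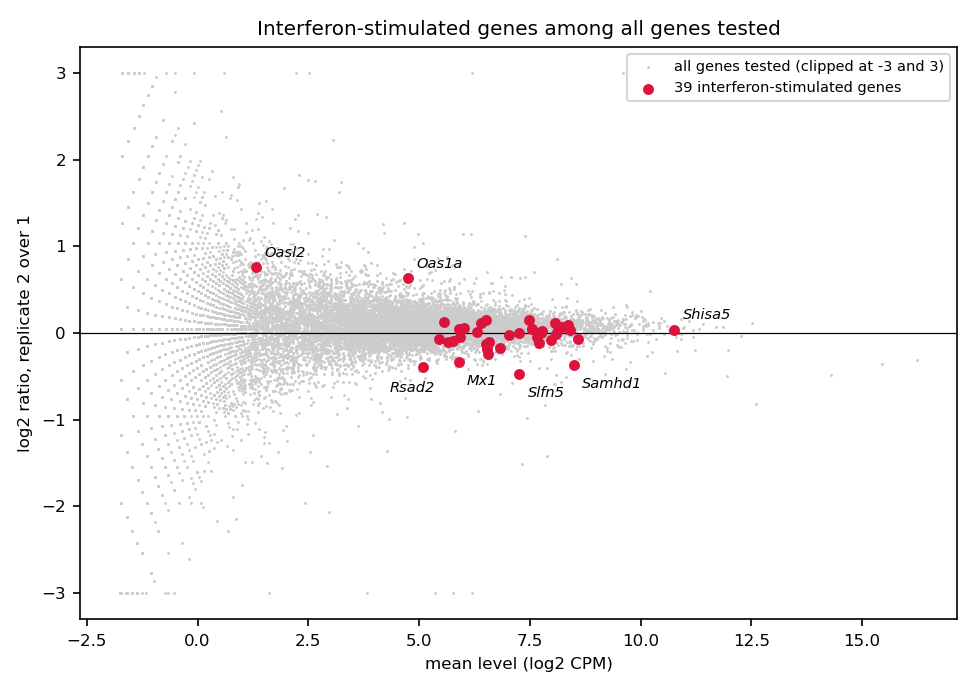
Log2 ratio of replicate 2 over replicate 1 against the mean log2 CPM, for all genes tested (grey, ratios beyond 3 drawn at 3) and for the 39 interferon-stimulated genes (red). The red points follow the middle ratios of the grey cloud apart from the labelled genes other than *Shisa5*. The log2 ratio of *Shisa5* is 0.038, and *Oasl2* is the member with the fewest counts.

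The genes are described next by role, and the roles were assigned after the values were seen. Counts of calls in a role stand beside 16.3% of all genes tested, or 26.8% of those with at least 500 counts. Among the transcription factors 1 of 3 was called. *Irf1*, which is induced by interferon-γ and activates many other members, had 273 CPM in replicate 1, against 272 in replicate 2. *Irf7*, the factor that amplifies production of interferon-α, was at 185 and 192 CPM. *Irf9*, a DNA-binding subunit of the complex that binds the ISRE, was at 168 and 187 CPM, a log2 difference of 0.15 (adjusted p = 0.00111, exact binomial test). The replicates thus differed by little for all 3, and the call of *Irf9* was lost with each of the other 3 library scalings. No ISRE was found in the windows of these genes, and the only motif was the GAS of *Irf1* printed above.

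Among the RNA sensors and RNA-modifying enzymes 2 of 8 were called, close to the background (16.3%, or 26.8% with at least 500 counts). *Ddx58*, which encodes the RNA sensor RIG-I, was at 218 and 222 CPM. *Ifih1*, which encodes MDA5, a sensor of long double-stranded RNA, was at 59.0 and 60.8 CPM. *Dhx58*, which encodes LGP2, a regulator of both, was at 63.8 and 66.2 CPM. These 3 members of the RIG-I-like family differed between the replicates by at most 1.04-fold, and none was called. *Eif2ak2*, which encodes PKR, the kinase that stops translation when it binds double-stranded RNA, was at 45.1 and 43.0 CPM. *Adar*, the enzyme that converts adenosine to inosine in double-stranded RNA, was at 294 and 309 CPM, but 1365 bases of its exons lie opposite exons of *Chrnb2*, and the strand setting of the counting is not given. Neither was called. *Zbp1*, a sensor of Z-form nucleic acid that can start cell death, was at 218 and 200.4 CPM and was higher in replicate 1 (log2 ratio -0.12, adjusted p = 0.00598, exact binomial test).

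*Oas1a* and *Oasl2*, of the oligoadenylate synthetase family, had the largest ratios of all 39 genes in the direction of replicate 2. Family members outside the 39, named after their values were seen, did not all share this. *Oas3* was at 219 and 226 CPM (log2 ratio 0.047) and *Oas2* at 90.8 and 95.6 CPM (0.074), and *Oasl1* had a log2 ratio of 0.16. None of these was called, whereas *Oas1b* was, at 44.3 and 54.6 CPM (0.30). *Oas1a*, which makes the 2′-5′ oligoadenylates that activate RNase L, had 352 counts in replicate 1 and 529 in replicate 2, or 21.0 CPM (95% interval 19.0 to 23.4) and 32.6 CPM (29.9 to 35.5). The log2 difference was 0.63 (95% interval 0.43 to 0.83, adjusted p = 8.40e-09, exact binomial test), and the intervals of the replicates did not overlap. *Oasl2*, an oligoadenylate synthetase-like gene, had 31 and 51 counts, 1.85 CPM (1.31 to 2.63) and 3.14 CPM (2.39 to 4.13), and its log2 difference of 0.76 was not called (adjusted p = 0.0975, exact binomial test). For *Oas1a* 57.6% of the windows of 50 bases in its transcripts occur in transcripts of other genes, mostly in its copy *Oas1g*, so reads from these stretches could not be placed uniquely and both levels are uncertain. *Oas1g* itself had 8 and 16 counts.

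All 6 antiviral effector genes were lower in replicate 2, and 4 of the 6 were called with each of the 4 library scalings, against 2.82% of all genes tested and 3.97% of those with at least 500 counts that were higher in replicate 1 with the totals on genes. The genes were sorted into roles after their values were seen, so the shared direction of this group is a description and no independent evidence. The median log2 ratio of the 6 was -0.28, beside 0.076 for all genes tested. *Ifit1*, whose product binds viral RNA that lacks a host-type cap, had 102 CPM in replicate 1, against 86.7 in replicate 2. *Mx1*, a GTPase that blocks influenza virus but is inactivated by a deletion in many laboratory strains including C57BL/6, was at 66.2 CPM (62.4 to 70.2) and 52.7 CPM (49.3 to 56.3). *Rsad2*, which encodes viperin, was at 38.5 CPM (35.6 to 41.6) and 29.4 CPM (26.9 to 32.2). Replicate 1 was thus above replicate 2 beyond the counting intervals in each of these 3 genes. The log2 ratios were -0.24 for *Ifit1* (adjusted p = 8.42e-05), -0.33 for *Mx1* (adjusted p = 1.28e-05) and -0.39 for *Rsad2* (adjusted p = 0.000169), all in the exact binomial test. *Samhd1*, which breaks down the nucleotides that reverse transcription needs, was at 404 CPM (395 to 414) and 313 CPM (304 to 321), a log2 ratio of -0.37 (adjusted p = 1.38e-41, exact binomial test). *Ifit3*, the partner of *Ifit1*, was at 56.2 and 52.7 CPM and *Isg20*, an RNA exonuclease, at 52.2 and 48.8 CPM. Neither was called. *Ifit3* shares 51.2% of its windows of 50 bases with its copy *Ifit3b*, so its level is uncertain. Of the 11 mature thymocyte markers 7 were called lower in replicate 2 with the totals on genes (background 2.82%, or 3.97% with at least 500 counts). With TMM 10 were (background 5.49%), and 9 with each of the other 2 scalings. Their backgrounds were 4.63% with DESeq2 size factors and 4.4% without mitochondrial and ribosomal RNA genes. *Trbc2* had a ratio in the other direction (log2 ratio 0.044) and was not called. The NK cell list was higher in replicate 2, with 4 of 4 called by the totals on genes (background 13.5%, or 22.8%). With each of the other scalings 2 of 4 were called. The background was then 5.09% with TMM, 6.22% with DESeq2 size factors and 6.57% without mitochondrial and ribosomal RNA genes. The part of these marker lists in the ratios above was not tested.

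The immunity-related GTPases and the guanylate-binding protein act on the membranes that enclose intracellular microbes. Of these 6 genes 3 were called, 1 higher in replicate 1 (background 2.82%) and 2 higher in replicate 2 (background 13.5%). *Igtp* was at 215 CPM in both replicates and had the smallest coefficient of variation of the 39 genes, 0.145%. *Irgm1*, a regulator of the other GTPases, was at 152 CPM in both. *Irgm2* was at 119 and 106 CPM and was higher in replicate 1 (log2 ratio -0.17, adjusted p = 0.00419, exact binomial test). Thus *Igtp* and *Irgm2*, which lie on chromosome 11 with overlapping gene models that share 162 bases of exon and whose printed sites differ at 1 position, had log2 ratios of -0.0030 and -0.17, a difference that was not tested. *Ifi47* was at 258 and 279.9 CPM (log2 ratio 0.12), and *Iigp1* at 87.1 and 96.4 CPM (log2 ratio 0.15). Both were called higher in replicate 2 with the totals on genes and lost the call with the other 3 scalings, and *Iigp1* also lost it at a minimum of 1 count. *Gbp2* was at 95.4 and 87.6 CPM and was not called with the totals on genes (adjusted p = 0.0923, exact binomial test), but was with the other 3.

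The Schlafen family is linked to T cell growth and quiescence. Of the 4 genes 2 were called, in opposite directions (background 16.3% in either direction). *Slfn5* was at 179 CPM (172 to 185) in replicate 1 and 129 CPM (123 to 134) in replicate 2, a log2 ratio of -0.47 (95% interval -0.55 to -0.39, adjusted p = 1.10e-28, exact binomial test), the largest fall among the 39 genes. *Slfn2*, which keeps T cells quiescent, was at 319 and 339.7 CPM, a log2 difference of 0.089 that was called only with the totals on genes and with the other count minimums. *Slfn1* was at 276 and 283 CPM and *Slfn8* at 45.4 and 49.7 CPM, and neither was called. The 4 genes lie near each other on chromosome 11 in the order *Slfn5*, *Slfn8*, *Slfn2* and *Slfn1*, with 37.3, 44.3 and 46.2 kb between these members. *Slfn9*, between *Slfn5* and *Slfn8*, was at 107 and 107.6 CPM (log2 ratio 0.0067) and was not called. *Slfn5* was thus the only one of these 5 genes that was lower in replicate 2 with the totals on genes, and *Slfn1* and *Slfn9* were also lower, without a call for *Slfn1*, with each of the other scalings. Exons of *Slfn5* overlap 559 bases of the opposite-strand gene *Slfn5os*, whose reads cannot be told apart from it without strand.

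None of the 3 genes of the ubiquitin group was called with the totals on genes and the minimum of 10 counts. *Isg15*, a ubiquitin-like protein that is attached to other proteins, was at 61.2 and 59.3 CPM. *Usp18*, which removes ISG15 and also blocks IFNAR2 signalling, was at 99.6 and 92.7 CPM. *Trim30a*, a TRIM-family protein, was at 258 and 244 CPM (adjusted p = 0.0573, exact binomial test). *Isg15* was not called with any scaling, whereas *Usp18* and *Trim30a* were called higher in replicate 1 with the other 3, and *Trim30a* also at a minimum of 100 counts.

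Among the surface and membrane proteins, *Shisa5* had by far the most counts of the 39 genes, 28637 and 28543, or 1711 and 1757 CPM. Its log2 difference of 0.038 was called (adjusted p = 0.0153, exact binomial test) but turned to -0.041 with TMM (adjusted p = 0.0111, exact binomial test) and to -0.024 and -0.019, without a call, with the other scalings, so no direction is given for it. *Bst2*, which encodes tetherin, a protein that holds budding virus at the cell surface, was at 99.2 and 87.2 CPM and was higher in replicate 1 (log2 ratio -0.19, adjusted p = 0.00446, exact binomial test). *Ly6a*, which encodes the surface antigen Sca-1, was at 78.9 and 79.6 CPM and was not called. It shares 19.0% of its windows of 50 bases with *Ly6c1* and other genes.

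Of the other 6 genes only *Ifi203* was called. *Ifi203*, of the DNA-binding PYHIN family, was at 393 and 374 CPM (log2 ratio -0.073, adjusted p = 0.0314, exact binomial test). *Parp14*, an ADP-ribosyltransferase, was at 338 and 345 CPM. *Xaf1*, a gene linked to cell death, was at 204.9 and 198 CPM and was called higher in replicate 1 with the other 3 scalings. *Ifi27l2a* was at 183 and 189 CPM, *Rtp4* at 132 and 130.1 CPM, and *Ifi35* at 80.8 and 87.9 CPM. These values differed between the replicates by at most 1.09-fold.

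To compare genes with each other, levels were also computed per kb of exon (RPKM, from the union of exons in GENCODE M21). On this scale the median of the 39 genes was 37.9 in replicate 1 and 34.8 in replicate 2, and the median of the 10567 expressed protein-coding genes was 7.09 for the mean of the replicates. All except *Oasl2* were above that median and 21 were at or above its 90th percentile. The order of mean RPKM began with *Shisa5* (526), *Ifi27l2a* (402), *Slfn2* (198) and *Slfn1* (150.1), followed by *Ifi47* (109), *Igtp* (106), *Bst2* (103) and *Isg15* (79.7). It ended with *Eif2ak2* (8.61), *Rsad2* (7.83), *Ifih1* (7.34) and *Oasl2* (0.392). In this order 22 of the 38 pairs of neighbours had overlapping ranges of the replicates and could not be ordered, including *Ifi47* with *Igtp*, *Igtp* with *Bst2*, and *Rsad2* with *Ifih1*. The other 16 pairs did not overlap with this length, including each step from *Shisa5* to *Ifi47* and the step from *Ifih1* to *Oasl2*. The order also depends on the length used. With the longest transcript as length, *Ifi47* (151.6) stood above *Slfn1* (150.1), and *Isg15* moved from place 8 to place 12. *Ifi27l2a*, with an exon union of 463 bases, was thus far higher in this order than by CPM.

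The pathway itself was examined in lists of other genes. Of 21 interferon genes, including 14 of the *Ifna* family and *Ifnb1*, 17 had 0 counts in both libraries and 20 were at or under the floor of 3 counts. *Ifng* was the exception, with 78 and 51 counts, 4.66 and 3.14 CPM (log2 ratio -0.57, adjusted p = 0.122, exact binomial test), and was not called. *Ifnb1* had 0 counts in both, below the floor of 3 counts (0.179 and 0.185 CPM). *Ifna* genes resemble each other closely, so reads that align to several of them are not in these counts. Bulk RNA of sorted cells says nothing of interferon made by other cells of the thymus.

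The receptor chains were present, apart from *Ifnlr1* for interferon-λ, with 0 and 1 counts. *Ifnar1* was at 174 and 161 CPM (called, log2 ratio -0.11) and *Ifnar2* at 82.8 and 83.4 CPM. *Ifngr1* was at 217 and 236 CPM (called, 0.12) and *Ifngr2* at 33.0 and 22.6 CPM (called, log2 ratio -0.55, adjusted p = 5.73e-07, exact binomial test). In all, 3 of the 5 receptor genes tested were called, 2 of them higher in replicate 1 (background 2.82%) and *Ifngr1* higher in replicate 2 (background 13.5%), and the call of *Ifngr1* was lost with each of the other 3 scalings. Per kb of exon, *Ifngr1* was at 79.5 RPKM and *Ifngr2* at 7.38 RPKM, and *Ifnar1* at 28.2 and *Ifnar2* at 24.97 RPKM, each the mean of the replicates.

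Of the 5 signalling genes 2 were called, both higher in replicate 2 (background 13.5%), and of these *Jak1* was also called with each of the other 3 scalings. *Jak1*, the kinase used by both receptor types, was at 1009 and 1111 CPM (called, log2 ratio 0.14) and *Tyk2* at 90.4 and 92.6 CPM. *Stat2* was at 102 CPM in both. Among 7 genes that restrain the pathway 1 was called (background 16.3%), with the totals on genes but with none of the other 3 scalings. *Socs1*, which blocks JAK kinases, was at 78.8 and 81.3 CPM. Among 8 of 9 nucleic acid sensing genes that could be tested 1 was called (background 16.3%), *Tlr3*, named here after its values were seen, with 25 and 4 counts.

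Of 57 further interferon-stimulated genes 54 were listed, 50 were at 1 CPM or more in both libraries and 51 were tested. Of these 15 were called, against 16.3% of all genes tested and 26.8% of those with at least 500 counts called in either direction. By direction, 10 were higher in replicate 1 (background 2.82%, or 3.97% with at least 500 counts). The other 5 were higher in replicate 2 (background 13.5%, or 22.8%). The median log2 ratio of the 51 genes was 0.0076, beside -0.0030 for the 39 genes and 0.076 for all genes tested. With TMM 17 were higher in replicate 1 (background 5.49%) and 3 were higher in replicate 2 (background 5.09%). The 5 with the highest mean CPM were *Rnf213* (1933 and 1913 CPM), *Ly6e* (798 and 802 CPM), *Sp100* (576 and 645 CPM), *Helz2* (519 and 491 CPM) and *Lgals3bp* (369 and 333 CPM). Neighbours of members within 200 kb, among both lists, were looked up after the values were seen. Of 20 such pairs 2 had both genes called, in the same direction, 9 had 1 gene called and 9 none. With the totals on genes 6 pairs had ratios of opposite sign, such as *Gbp2* (-0.12) and *Gbp3* (0.17). The other scalings lower every ratio, so this count depends on the scaling. For example, *Ly6a*, paired with *Ly6c2*, turned from 0.012 to -0.067 with TMM. *Cmpk2*, which lies 12.8 kb from *Rsad2*, was at 61.4 and 50.7 CPM (log2 ratio -0.28, beside -0.39 for *Rsad2*), and *Mx2*, 72.4 kb from *Mx1*, was at 21.5 and 17.2 CPM (log2 ratio -0.32, beside -0.33 for *Mx1*). These were the 2 pairs with both genes called. *Ifit2*, next to *Ifit3*, was at 68.8 and 69.6 CPM and was not called, while *Ly6c2*, 110.1 kb from *Ly6a*, was called at 238 and 179.6 CPM.

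**Figure D5:**
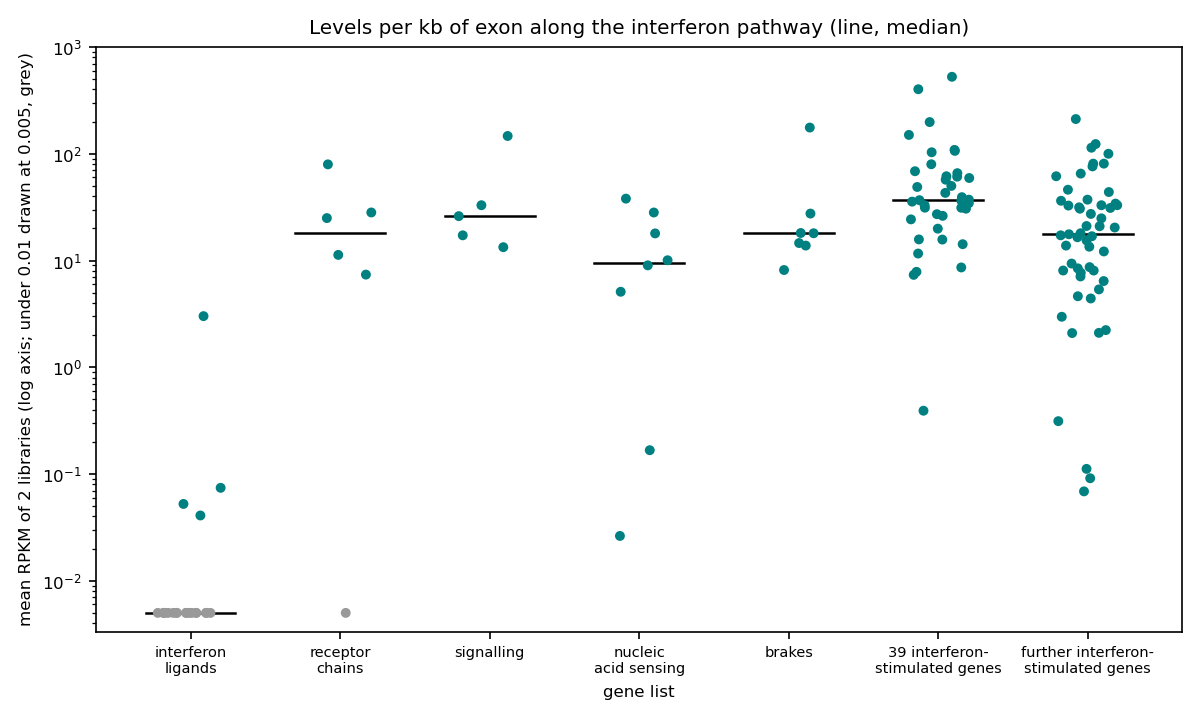
Mean RPKM of the 2 libraries on a log axis for each gene of the interferon pathway lists, with the median of each list as a line and values under 0.01 drawn in grey at 0.005 and genes without a gene model in the annotation left out. The ligands sit at the bottom, with *Ifng* (3.01 RPKM) above the rest, whereas receptor, signalling and restraining genes overlap the range of the 39 interferon-stimulated genes.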

How the data were processed

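RNA of sorted CD4- mature thymocytes from *MHC-II0:CD8ab Tg* mice was sequenced in 2 replicates. Per the labels and the study's methods, the authors prepared poly(A) libraries with a kit that does not mark strand, aligned single-end reads to mm10 with TopHat2 2.1.1 and deposited counts per gene from HTSeq 0.6.1, raw and without normalization. The annotation and the strand setting are not given in the sources used here. Reads on no gene were 55.9% of the uniquely aligned reads in both libraries, and reads on more than 1 gene made up 3.52% and 2.92%. Multiply aligned reads were not assigned to genes, which lowers genes with near-identical copies.

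The 39 genes and the other lists were chosen with earlier results of these data known, and the members were sorted into roles after their values were seen. All 39 genes are named. From the other lists, counts are given, with values for chosen pathway genes and for the 5 further interferon-stimulated genes with the highest mean CPM. Genes outside this rule are marked. CPM used the total on genes, with Wilson 95% intervals. RPKM used GENCODE M21 exons of GRCm38, the same build as mm10. The exact binomial test was run on every gene with 10 or more counts in total (scipy 1.17.1, statsmodels 0.14.6, Python 3.11.15). The p-values of this test compare only these libraries and set their difference against counting error alone. They depend on the number of counts as well as on the size of the difference. Alternatives were TMM (edgeR 4.0.16, R 4.3.3) and DESeq2 1.42.0 library sizes, totals without 393 mitochondrial and ribosomal RNA genes, minimum counts of 1 and 100, CPM minimums of 0.5 and 5, the longest transcript as length, shorter and longer ISRE motifs, leaving out a replicate, and the exact test of edgeR at an assumed biological coefficient of variation of 0.1. 1 pathway gene is not reported here.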

Additional observations from a re-analysis of the deposited data

How the results depend on the processing

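No paired analysis was possible because there is a single group. The median level of the 39 genes was 130.5 CPM as the mean of the replicates' medians, 128.6 to 132.4 with either replicate left out, and 152 CPM with totals that omit mitochondrial and ribosomal RNA genes, which raises every level by construction. The median RPKM was 36.4, 34.8 to 37.9 with either replicate left out, and 54.3 with the longest transcript as length, which is shorter than the union of exons for many genes. All 39 genes stayed at 1 CPM or more with each scaling.

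The number of genes called higher in replicate 1 was 9 (background 2.82%), and 15 with TMM (background 5.49%). It was 13 with DESeq2 size factors (background 4.63%) and 13 without mitochondrial and ribosomal RNA genes (background 4.4%). It was 9 and 10 at minimums of 1 and 100 counts, and 0 in edgeR's exact test. The number called higher in replicate 2 was 6 (background 13.5%), and 1 with TMM (background 5.09%). It was 1 with DESeq2 size factors (background 6.22%) and 1 without mitochondrial and ribosomal RNA genes (background 6.57%). It was 0 in edgeR's exact test, which allows for variation between samples by construction. The median log2 ratio of -0.0030 became -0.082 with TMM. These scalings moved the median of all genes by -0.079 for TMM, -0.062 for DESeq2 size factors and -0.057 for the third. *Shisa5* turned from 0.038 to -0.041 with TMM, to -0.024 with DESeq2 size factors and to -0.019 without mitochondrial and ribosomal RNA genes. In 10 genes that were not called, the sign of the ratio also turned with at least 1 scaling. An ISRE was found in 18 genes, in 12 with the motif of 11 letters and in 19 with that of 9. With 2 libraries, differences smaller than the spread between them cannot be told from it.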
